A study of Mus musculus with 18 samples.

Results

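The genes described here were 9 cytokines: Tnf, Il6, Osm, Lif, Il10, Il12b, Il23a, Il27 and Il15. They were taken from a list of symbols, and all 9 were found among the 53465 genes of the count table. All but Il15 belong to the tumour necrosis factor (TNF), IL-6, IL-10 and IL-12 groups. TNF is a trimeric cytokine made early in inflammation, which acts on neurons, glia and endothelium through the receptors Tnfrsf1a and Tnfrsf1b. IL-6, oncostatin M (Osm) and leukemia inhibitory factor (Lif) share the signalling receptor chain Il6st, and IL-10 restrains the output of cytokines by macrophages through Stat3. The IL-12 group is built of paired chains: Il12b pairs with Il12a to form IL-12 and with Il23a to form IL-23, while Il27 pairs with Ebi3 to form IL-27. Il15 supports NK cells and memory T cells, and is shown to them on its own receptor chain, Il15ra.

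The 18 libraries came from 9 adult female C57BL/6J mice, 8 to 10 weeks old, with a contusion injury of the spinal cord at the level of the 11th thoracic vertebra. At 48 h after injury, 3 mice were injected into the cord with 1 µL of PBS, 3 with 100 ng of recombinant IL-13 and 3 with 100 ng of recombinant IL-4, and the cells were collected 24 h later. From each cord, microglia (CD45low, CD11b+, F4/80+) and macrophages (CD45high, CD11b+, F4/80+) were sorted on surface markers, so that each of the 6 groups held 3 libraries and each mouse gave both cell types. All mice were injured, and no uninjured mouse was included. The mice carry the numbers 1 to 3 with PBS, 5 to 7 with IL-13 and 8 to 10 with IL-4.

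Libraries held between 35961305 and 45849829 counts, and between 15193 and 18371 genes with a count. Transcripts of mitochondrial protein genes took 6.35% to 12.2% of the counts of IL-4 microglia and at most 3.53% elsewhere. Retnla, Chil3 and Mrc1, known to rise with IL-4 and IL-13, were called higher than with PBS in both cell types with IL-4 and in macrophages with IL-13. In IL-13 microglia Retnla and Chil3 were, while Mrc1 had an adjusted p of 0.0524. Microglia markers (9 genes) summed to between 258900 and 464800 normalised counts in PBS microglia and to between 111300 and 167600 in PBS macrophages, so they were not limited to the microglia gate. The 7 markers of fibroblasts and pericytes all had counts in every microglia group, with sums of 7502 to 289900, against 7.61 to 272.5 in macrophages. In macrophages, all 9 neutrophil markers had counts, and the sum was by far highest in mouse 6 of its group (121300 against 20900 and 21590 with IL-13) and highest in mouse 9 of its group (33670 against 9773 and 16890 with IL-4). With PBS it was 35900 to 60460. Normalised counts are counts divided by the DESeq2 size factors of the 18 libraries.

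On a scale of normalised counts per kb of exon, the 9 cytokines differed by more than 3 orders of magnitude in level. In PBS macrophages, Osm stood at 5875 ± 190.7 (SD, n = 3) and Tnf at 2634 ± 610.1, above 97.7% and 95.2% of the 12050 tested genes with a known length. The other members were far lower there, from 105.1 ± 3.66 for Il15 and 56.7 ± 12.7 for Lif down to 12.8 ± 4.46 for Il6 and 3.24 ± 2.51 for Il12b. PBS microglia had Tnf at 705.8 ± 160.9 and Osm at 440.9 ± 142.4, the highest members per length. Il15 followed at 140.8 ± 38.8 and Il6 at 64.6 ± 61.9, and Il12b and Il27 had 0 counts in all 3 libraries. With 0 counts in a library, a level of up to 3 counts is allowed, and this floor covers counting error only.

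**Figure D1:**
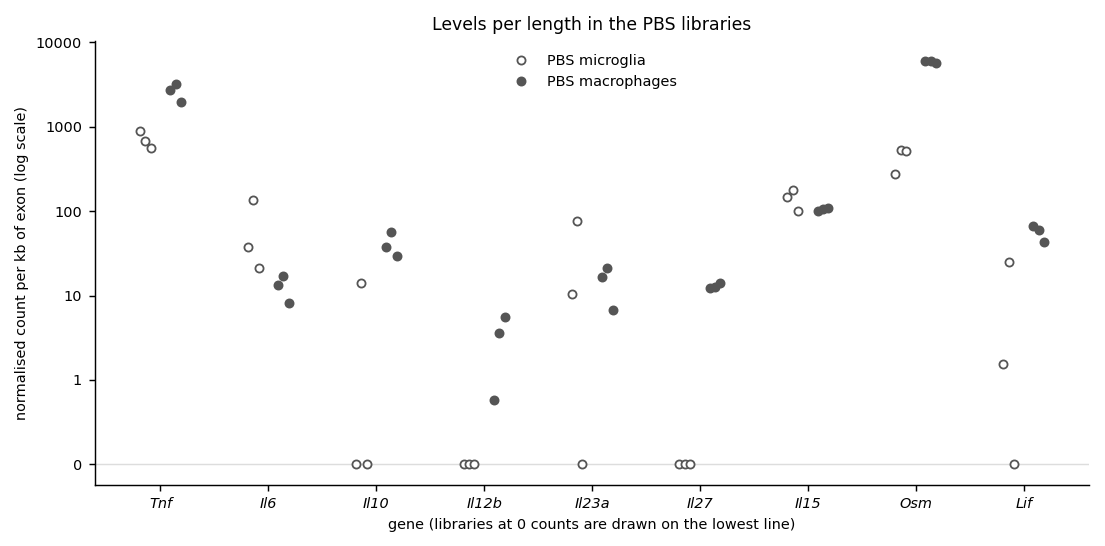
Normalised counts per kb of exon (log scale) of the 9 cytokines in the 3 PBS microglia libraries (open circles) and the 3 PBS macrophage libraries (filled circles); libraries at 0 counts are drawn on the lowest line. Osm and Tnf stand highest in macrophages, at means of 5875 and 2634, and Il15 has the closest means of the cell types, 1.34-fold apart.

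Tnf lies at chr17:35199381-35202007 on the minus strand (GRCm38, GENCODE M21). Its transcript is known for AU-rich elements in the 3′ untranslated region (UTR), bound by proteins such as tristetraprolin (Zfp36) that shorten the life of cytokine mRNAs. In the transcript with the longest 3′ UTR of each gene, that of Tnf (764 bases) held 8 copies of the pentamer ATTTA, and 0.339% of the 2363 genes whose 3′ UTR was within 20% of that length held as many. The stricter nonamer TTATTTATT, searched on the transcribed strand with overlaps counted, occurred 5 times in Tnf, 2 times each in Il27 and Lif, once in Il23a and in none of the other 5 members. Of all 21021 protein-coding genes with a 3′ UTR, 7.66% held it. Among genes near the length of the member, 3.98% held it for Tnf, 3.59% for Il23a, 1.73% for Il27 and 14.7% for Lif. Lif held 7 pentamers, and 38.7% of the genes near its length held as many. The sites are shown because they mark which of these transcripts carry the full element, each as 27 bases in mRNA direction with the nonamers in capitals (GRCm38, from the GENCODE M21 transcripts), at chr17:35199683-35199709 for Tnf, chr10:128296185-128296211 for Il23a, chr7:126589079-126589105 for Il27 and chr11:4272040-4272066 for Lif:
Tnf: taTTATTTATTATTTATTTATTattta
Il23a: agatgatggTTATTTATTctatttata
Il27: cttggatatTTATTTATTtttaagaaa
Lif: aaggggcctTTATTTATTatttaaaac
The stretch of Tnf holds overlapping nonamers, and the other 3 hold 1 each.

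Tnf fell in both cell types with both cytokines. In PBS macrophages it had 4467, 5234 and 3251 normalised counts in mice 1 to 3, against 547.2, 1690 and 792.9 with IL-13 and 739, 1119 and 861.5 with IL-4. Every PBS library stood above every library of the injected cytokines, and mouse 6 was the highest of the IL-13 group. The mean fell from 4318 ± 1000 (SD, n = 3) to 906.4 ± 193.8 with IL-4, which is -2.20 ± 0.37 (SE) on the log2 scale with an adjusted p of 0.00356. With IL-13 it fell to 1010 ± 601.3, by -2.07 ± 0.37 on that scale (adjusted p = 0.0122). PBS microglia had 1440, 1113 and 917.6 normalised counts, IL-13 microglia 143.6, 182.9 and 112.1, and IL-4 microglia 139.5, 329.9 and 186. Neither group overlapped with PBS here. Tnf changed by a log2 fold of -2.37 ± 0.40 with IL-4 (adjusted p = 0.0192) and -2.98 ± 0.41 with IL-13 (adjusted p = 0.0156).

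These calls rested on few libraries to different degrees. In macrophages the fall with IL-4 was called with each of the 6 libraries left out in turn, while the fall with IL-13 was not called without PBS mouse 2 or IL-13 mouse 7 (highest adjusted p 0.0608). In microglia, the call was lost without any of the 3 PBS libraries in both comparisons, without IL-4 mouse 10, and without IL-13 mouse 5 or 7, with adjusted p up to 0.115 for IL-4 and 0.121 for IL-13. The log2 fold change stayed between -2.79 and -2.13 with IL-4 and between -3.15 and -2.79 with IL-13 in these microglia fits. DESeq2's Wald test called all 4.

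Between IL-4 and IL-13, Tnf differed by 0.61 ± 0.38 on the log2 scale in microglia (adjusted p = 0.631) and by -0.13 ± 0.36 in macrophages (adjusted p = 0.936). The libraries of both groups overlapped in each cell type. The difference between the cell types in the response of Tnf was -0.19 ± 0.53 for IL-4 (adjusted p = 0.988) and -0.91 ± 0.53 for IL-13 (adjusted p = 0.995). In bulk libraries of sorted cells, fewer cells that carry a transcript and less of it in each cell cannot be told apart.

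A list of 9 early response genes (Fos, Fosb, Jun, Junb, Egr1, Atf3, Ier2, Hspa1a and Hspa1b), known to rise during tissue dissociation, is given beside Tnf. All 9 had counts in every group. Their sum in macrophages was below every PBS library in each library of the injected cytokines other than IL-13 mouse 6, and in microglia in all of them. The sum was 121600 to 133300 normalised counts in PBS macrophages, 71430 and 84770 in IL-13 mice 5 and 7, 79830 to 101500 with IL-4 and 124700 in IL-13 mouse 6. In microglia it was 32390 to 39800 with PBS, 15840 to 22850 with IL-13 and 17700 to 27160 with IL-4. The genes of the list did not all follow its sum. In IL-4 microglia 6 of the 9 had lower means than with PBS, among them Fos (4674 against 12300 normalised counts) and Jun (5003 against 7755), while Atf3 (3734 against 3071), Hspa1a (841 against 628.3) and Hspa1b (27.9 against 7.25) had higher means. In IL-13 microglia all 9 means were lower. In macrophages 7 of 9 were lower with each cytokine, with Egr1 and Hspa1b higher with IL-4 and Junb and Ier2 higher with IL-13.

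Markers of other cell types also moved beside Tnf. The 9 microglia markers, all with counts in every group, summed to 116800 to 297800 in IL-13 microglia, which overlapped PBS, and to 107000 to 181500 in IL-4 microglia, which did not. In the macrophage libraries their sum was 44520 to 91910 with IL-13 and 18120 to 33600 with IL-4, both below the 111300 to 167600 of PBS, so that it was lower beside Tnf, Lif and Il15 there. The sum of neutrophil markers was below every PBS macrophage library in all IL-4 macrophages (9773 to 33670 normalised counts against 35900 to 60460) and in IL-13 mice 5 and 7, but not in mouse 6. The genes of the list did not all follow it. Cxcr2 had a mean of 1422 with IL-4 against 1406 with PBS. Camp (at most 464.8 against at least 662.7) and Ltf (at most 1401 against at least 1768) were below PBS in all IL-13 macrophages. In the microglia libraries, fibroblast and pericyte markers were lower with IL-4 without overlap (7502 to 52870 against 82080 to 127400 with PBS) and ran from 41420 to 289900 with IL-13. The sum of the 8 monocyte and macrophage markers was higher there with both cytokines (15970 to 17470 with IL-13 and 22760 to 31230 with IL-4, against 5636 to 9950). Ccr2, Ms4a7, F10, S100a4 and Cd44 had higher means with both. Means of Itga4 (148.3 against 282.4) and Ly6c2 (194.7 against 251.7) were lower with IL-13, and that of Plac8 with IL-4 (134.2 against 217.6). The sum of endothelial markers was higher in IL-4 microglia (63720 to 86760 against 25510 to 57780), though the means of Kdr (1184 against 2992) and Cdh5 (1025 against 1307) were lower. It was also higher in the macrophage libraries with IL-4 (7938 to 16190) and IL-13 (5085 to 8387, against 1720 to 2063 with PBS). In IL-4 macrophages the means of Pecam1 (8379 against 333.8) and Flt1 (2447 against 249.1) were higher. Those of Cldn5 (33.2 against 95.5) and Kdr (236.4 against 1199) were lower there, and Cdh5 stood at 20.8 against 19.7. Oligodendrocyte markers were higher in IL-4 microglia (7548 to 8715 against 4347 to 7304), lower in IL-13 microglia (2641 to 3635), and lower in macrophages with both cytokines (2558 to 3046 against 3918 to 5648). In macrophages with both cytokines, markers of mast cells, basophils and eosinophils were lower (169.3 to 279.4 against 444.4 to 557.8, where 1 of the 7 genes had counts with PBS). The small sums of the 8 T and NK cell markers were higher there (142.7 to 339.5 against 36.1 to 65.9), with Gzma and Ncr1 at 0 in all macrophage groups. Means of Cd2 (182.6 with IL-13 and 235.2 with IL-4, against 34.6) and of Klrb1c (37.1 and 19.3 against 3.51) were higher. That of Nkg7 was lower (0.81 and 1.64 against 5.68), and those of Cd3e, Cd3d and Cd3g were at most 1.5 in every macrophage group. In IL-4 macrophages, marker sums of B cells (77.5 to 84.6 against 139.9 to 171.6 with PBS), of dendritic cells (523.9 to 880.7 against 925.5 to 2043) and of fibroblasts and pericytes (7.61 to 31.4 against 150.7 to 241.1) were lower without overlap. Most of the dendritic cell sum with PBS was Siglech (60.8 with IL-4 against 1130), which is also on the microglia list. Of the other dendritic cell genes, Flt3, Zbtb46 and Xcr1 had lower means. Ccr7 (231.6 against 74.2) and Cd209a (257.1 against 123.4) had higher ones. Of the 12 lists, the early response genes included, 6 overlapped PBS in IL-4 microglia, 9 in IL-13 microglia, 2 in IL-4 macrophages and 7 in IL-13 macrophages. The part of any of these lists in the falls of the cytokines was not tested.

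Over the 18 libraries, each centred on the mean of its cell type, the genes most like Tnf in log2 normalised count were Fos (Pearson r = 0.911), Gpr84 (r = 0.909) and the chemokine gene Ccl4 (r = 0.904), among 13009 genes tested in both cell types. This is a description of libraries that share treatments, mice and dissociation.

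**Figure D2:**
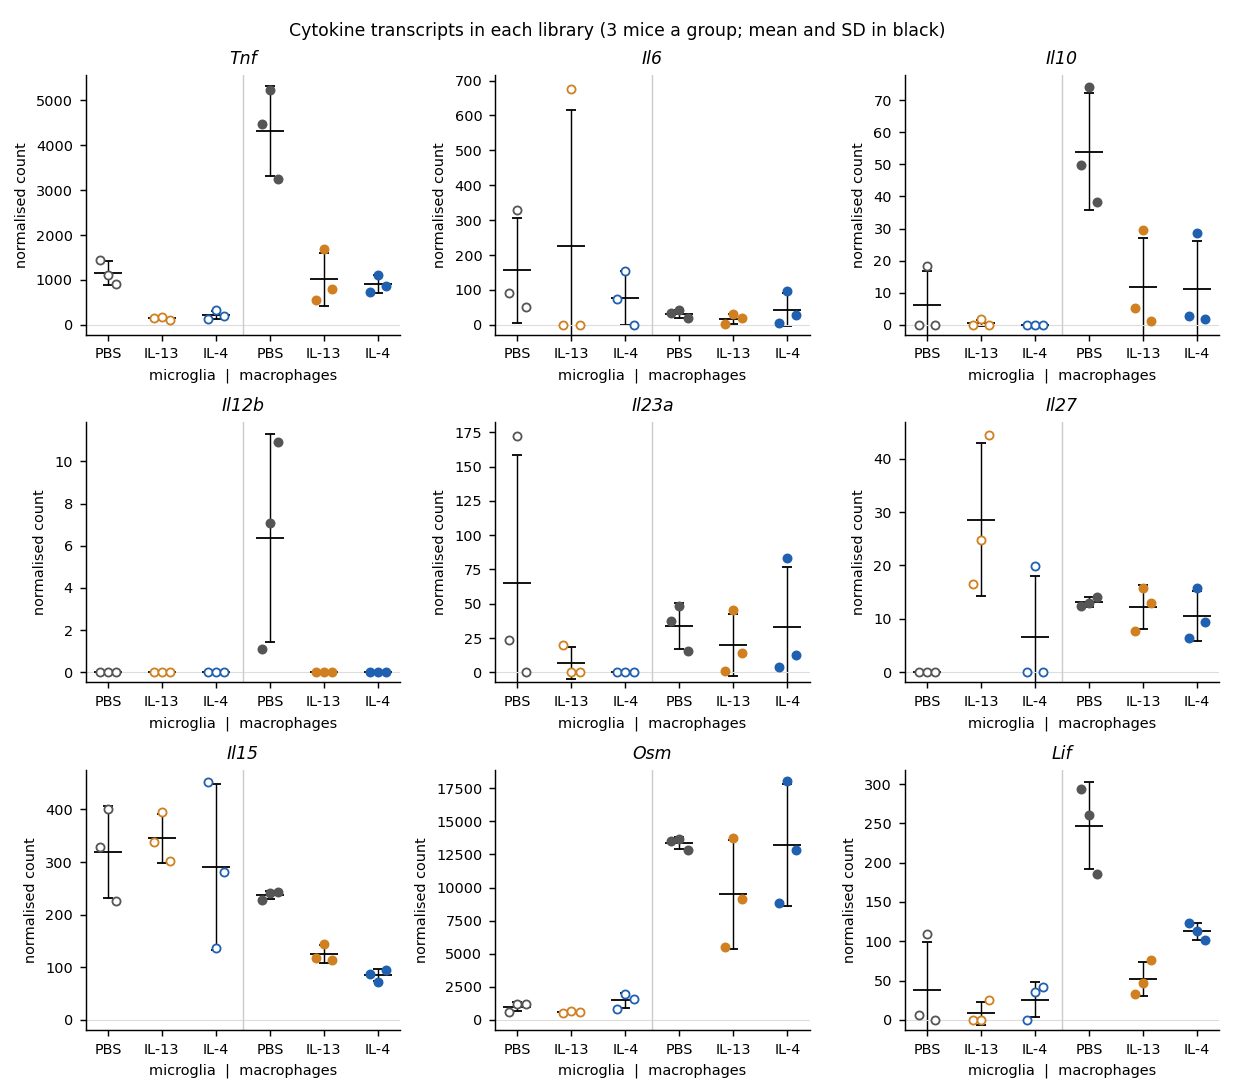
Normalised counts of each cytokine in the 18 libraries, with microglia as open circles left of the grey line and macrophages as filled circles right of it, in grey for PBS, orange for IL-13 and blue for IL-4; black bars give the mean and SD of 3 mice, cut off below the axis. Tnf is lower with both cytokines in both cell types, while Lif, Il10 and Il15 are lower in macrophages without overlap with PBS.

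Osm was not called by edgeR in any comparison of treatments. In macrophages it had 13500, 13690 and 12860 normalised counts with PBS, 5542, 13750 and 9169 with IL-13, and 8837, 18030 and 12860 with IL-4. The PBS libraries were close together and lay within the range of the IL-4 libraries, and IL-13 mouse 6 stood as high as PBS. Its log2 fold change was 0.04 ± 0.31 with IL-4 (adjusted p = 0.952) and -0.47 ± 0.31 with IL-13 (adjusted p = 0.499). Of the most abundant members in PBS macrophages, Tnf was thus called with IL-4 and Osm was not; whether the changes of these genes differ was not tested. In microglia, Osm had 628.8, 1207 and 1169 normalised counts with PBS, 506.4, 695.7 and 586.3 with IL-13, and 858, 1955 and 1614 with IL-4. All IL-4 microglia were above all IL-13 microglia. The difference was 1.34 ± 0.35 on the log2 scale, with an adjusted p of 0.262 by edgeR and 0.0162 by DESeq2.

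Lif is the neighbour of Osm on chromosome 11, at chr11:4257557-4272514 on the plus strand against chr11:4236420-4241026 for Osm, on the same strand. It was called lower in macrophages with both cytokines. It had 293.6, 261.1 and 185.6 normalised counts with PBS, 33.5, 47.5 and 76.0 with IL-13, and 122.7, 113.2 and 101.7 with IL-4. The 3 groups did not overlap, with PBS highest and IL-13 lowest. On the log2 scale Lif changed by -2.20 ± 0.33 with IL-13 (adjusted p = 0.00596) and -1.08 ± 0.32 with IL-4 (adjusted p = 0.048). The first was called with each library left out, and the second was lost with any of the 6 left out (adjusted p from 0.0625 to 0.149). With all 18 libraries in 1 model, which takes the spread from both cell types, neither was called (adjusted p = 0.848 and 0.883). The difference between the cytokines, 1.12 ± 0.33 on the log2 scale, had an adjusted p of 0.209 by edgeR and 0.0461 by DESeq2. Microglia had 0 counts of Lif in 4 of the 9 libraries and no more than 125 in the others, and no difference there was called.

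Promoter sequence from RefSeq (GRCm38.p6) was at hand for 4 of the 9 members: Tnf, Il6, Il12b and Lif. The 250 bases before the RefSeq start of Tnf and of Lif are shown, since both fell in macrophages with both cytokines, 5′ to 3′ in the direction of the gene, at chr17:35202008-35202257 and chr11:4257318-4257567. Capitals mark matches, on either strand and with overlaps counted, to GGGNNNNNCC (pairs of NF-kB half-sites) or TGANTCA (AP-1):
Tnf: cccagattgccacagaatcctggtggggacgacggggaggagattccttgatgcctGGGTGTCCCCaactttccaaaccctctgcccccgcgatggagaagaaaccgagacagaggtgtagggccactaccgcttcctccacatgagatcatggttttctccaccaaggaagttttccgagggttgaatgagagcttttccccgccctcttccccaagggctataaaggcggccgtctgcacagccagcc
Lif: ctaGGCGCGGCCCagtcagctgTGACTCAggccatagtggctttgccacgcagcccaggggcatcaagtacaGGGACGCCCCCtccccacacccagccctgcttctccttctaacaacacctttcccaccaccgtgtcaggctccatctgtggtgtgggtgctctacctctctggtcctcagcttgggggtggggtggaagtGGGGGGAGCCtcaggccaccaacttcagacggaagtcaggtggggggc
Tnf held 1 match to the NF-kB letters and none to the AP-1 letters, and Lif 4 and 1. Il6 held 3 and 1, and Il12b none of either. Among 32851 promoter windows of this length, 45.8% held the NF-kB letters and 6.75% the AP-1 letters. Matches to the STAT letters TTCNNNGAA and TTCNNNNGAA, which 7.02% and 5.85% of the windows held, were in none of the 4.

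Il15 (chr8:82331632-82403222, minus strand) was called lower in macrophages with IL-4. Macrophages had 228.1, 241.1 and 243.5 normalised counts with PBS, 118.5, 144.8 and 113 with IL-13, and 87.7, 71.8 and 94.1 with IL-4. The 3 groups did not overlap. The fall with IL-4 was called (log2 fold change -1.44 ± 0.23, adjusted p = 0.00283), also with each library left out, whereas with IL-13 it was -0.89 ± 0.23 (adjusted p = 0.0582, and 0.00546 by DESeq2). The difference between IL-4 and IL-13, -0.545 ± 0.23 on the log2 scale, was not called (adjusted p = 0.42 by edgeR). In microglia, Il15 had 329, 400.4 and 226 normalised counts with PBS, 338.8, 394.9 and 301.3 with IL-13, and 453.2, 137 and 281.1 with IL-4. The groups overlapped, and the log2 fold change was -0.09 ± 0.48 with IL-4 and 0.12 ± 0.48 with IL-13. The test of the difference between the cell types in the IL-4 response gave 1.32 ± 0.54 on the log2 scale (adjusted p = 0.317), so it did not show that the cell types differ. The microglia markers in the macrophage libraries, which fell without overlap between the groups as given beside Tnf, moved with Il15, the member higher in microglia, and their part was not tested.

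Il10 (chr1:131019845-131024974, plus strand) was close to limited to the macrophage gate. In macrophages it had 49.7, 74.1 and 38.2 normalised counts with PBS, 5.15, 29.4 and 1.09 with IL-13, and 2.77, 28.5 and 1.90 with IL-4. Every PBS library was above the others, and mouse 6 and mouse 9 stood apart from the other mice of their groups. The log2 fold change was -2.23 ± 1.10 with IL-4 (adjusted p = 0.217) and -2.15 ± 1.10 with IL-13 (adjusted p = 0.355), neither called. Microglia had 21 counts in PBS mouse 2, 2 counts in IL-13 mouse 6 and 0 in the other 7 libraries, and Il10 did not pass the filter on low counts there.

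The macrophages of mice 6 and 9, which had the highest neutrophil marker sums of their groups, were also the highest of their groups in Tnf, Osm, Il6, Il10, Il23a and Il27. Without these 2 libraries, a choice made after seeing the data, the log2 fold change of Il10 was -4.40 ± 0.85 with IL-4 (adjusted p = 0.00637) and -4.06 ± 0.84 with IL-13 (adjusted p = 0.0189), and both were called. Since Il10 was itself highest in them, leaving them out lowers the means of both groups. Tnf was called in both comparisons without them, at -2.38 ± 0.24 and -2.65 ± 0.24. Il15 was then called with IL-13 as well (-0.998 ± 0.24, adjusted p = 0.0375), and Lif with IL-4 was not (adjusted p = 0.0635). Whether neutrophils contributed to the cytokine transcripts of these libraries was not tested.

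**Figure D3:**
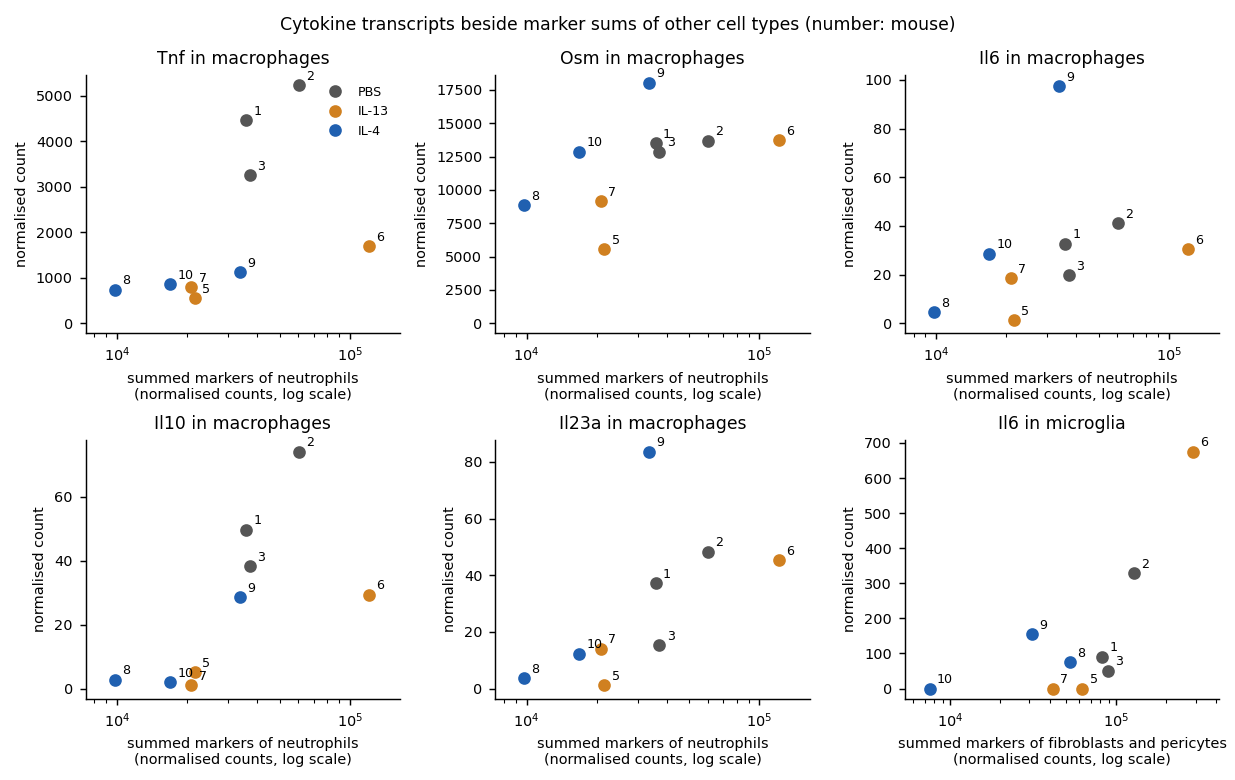
Normalised counts of 5 cytokines in the 9 macrophage libraries against the summed neutrophil markers, and of Il6 in the 9 microglia libraries against the summed fibroblast and pericyte markers (x axes on a log scale), in grey for PBS, orange for IL-13 and blue for IL-4 with the mouse number beside each point. Mice 6 and 9 are rightmost and highest of their groups in the macrophage panels, and mouse 6 stands at 675.2 in the microglia panel.

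Il6 (chr5:30013114-30019981, plus strand) showed no called change. Microglia had 90.5, 329.1 and 51.2 normalised counts with PBS, 0, 675.2 and 0 with IL-13, and 75.2, 155.4 and 0 with IL-4. The values ran from 0 to the highest of the whole study within the IL-13 group. The microglia of mouse 6 and of PBS mouse 2, the highest in Il6, also had the highest sums of the 7 fibroblast and pericyte markers, 289900 and 127400 normalised counts, against 7502 to 88510 in the other 7 microglia libraries. The part of such cells in the Il6 counts was not tested. In macrophages Il6 had 32.8, 41.2 and 19.6 normalised counts with PBS, 1.29, 30.5 and 18.5 with IL-13, and 4.61, 97.4 and 28.5 with IL-4. The groups overlapped in both cell types, with log2 fold changes from -0.98 to 0.53 against PBS and adjusted p of 0.738 or more.

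Among the IL-12 group, Il12b (chr11:44400063-44414033, plus strand) had counts in PBS macrophages only: 1, 6 and 10 counts in mice 1 to 3, and 0 in the other 15 libraries. It did not pass the filter on low counts and was not tested. Against the floor of 3 counts per library, the mean of the PBS group was at least 2.23-fold higher than with IL-4 and at least 1.82-fold higher than with IL-13. These limits rest on few counts: without PBS mouse 3 they were 1.43-fold and 1.17-fold, without PBS mouse 1 they were 3.15-fold and 2.56-fold, and mouse 1 was itself under the floor. Its partner chain Il12a stayed at a mean of 8.16 normalised counts or lower in every group.

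Il23a (chr10:128296139-128298752, minus strand) had counts in all macrophage libraries, with 37.3, 48.2 and 15.3 normalised counts with PBS, 1.29, 45.2 and 14.1 with IL-13, and 3.69, 83.6 and 12.4 with IL-4. The groups overlapped, and mice 6 and 9 were again the highest. The log2 fold change with IL-4 was 0.03 ± 1.12 with all libraries and -1.99 ± 0.97 without these 2, not called in either (adjusted p = 0.988 and 0.192). In microglia it had 24 and 198 counts in PBS mice 1 and 2, 22 in IL-13 mouse 5, and 0 in the other 6 libraries, which included all of the IL-4 group. No treatment difference was called (adjusted p = 0.266 or more).

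Il27 (chr7:126589010-126594941, minus strand), the chain particular to IL-27, had 11 to 13 counts in PBS macrophages, 6 to 14 with IL-13 and 7 to 16 with IL-4, with no group apart. Microglia had 0 counts in all 3 PBS libraries, 18, 29 and 57 with IL-13, and 0, 26 and 0 with IL-4. The IL-13 libraries were thus all above the PBS libraries, with a mean at least 10.4-fold higher than the floor, but the adjusted p was 0.528. The same contrast set against that of macrophages had an adjusted p of 0.473 by edgeR and 0.0471 by DESeq2. Ebi3, the other chain of IL-27 and a member of the partner list, fell in macrophages from 460.8 ± 31.0 normalised counts (SD, n = 3) to 210.6 ± 25.1 with IL-4 and 212.6 ± 59.4 with IL-13 (log2 fold change -1.08 and -1.09, adjusted p = 0.0131 and 0.0309).

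Set against all genes tested, the members' counts were as follows. In macrophages, 3 of the 8 tested members were called with IL-4 (Tnf, Il15 and Lif), where 14% of 13606 genes were called, and 2 of 8 with IL-13 (Tnf and Lif), where 4.19% were. All 5 calls were falls, as were 979 of the 1900 genes called with IL-4 and 226 of the 570 called with IL-13. Both comparisons share the PBS libraries, as they do in microglia. The median log2 fold change of the members was -0.67 with IL-4 and -0.87 with IL-13. In microglia, 1 of 7 tested members was called with IL-4, against 2.22% of 15566 genes, and 1 of 7 with IL-13, against 0.366%, in both cases Tnf. Between IL-4 and IL-13, edgeR called 0 of 7 members in microglia, where 0.0385% of genes were called. There, 1 of 7 had an unadjusted p under 0.05, against 11.4% of genes, and DESeq2 called 1, against 4.76%. In macrophages edgeR called 0 of 8, where 0.25% of genes were. There, 2 of 8 had an unadjusted p under 0.05, against 11.1%, and DESeq2 called 1, against 2.61%.

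**Figure D4:**
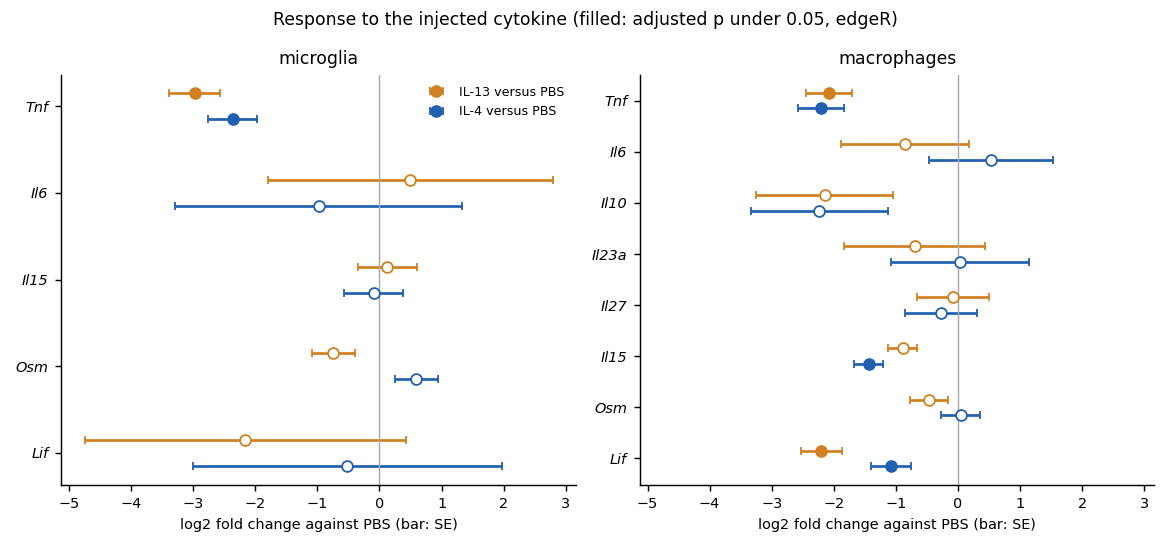
Log2 fold change against PBS (x axis, with SE bars) of the tested members with libraries above the floor in each group, for microglia (left) and macrophages (right), orange for IL-13 and blue for IL-4, filled where the adjusted p was under 0.05 by edgeR. Tnf is filled in all 4 comparisons, Lif in both of macrophages, and Il15 only with IL-4 in macrophages.

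Macrophages carried more Tnf and Osm than microglia of the same cord in each of the 9 mice. The ratio of normalised counts, macrophages over microglia, was 3.10 to 4.70 for Tnf in PBS mice, 3.81 to 9.24 with IL-13 and 3.39 to 5.30 with IL-4. For Osm it was 11 to 21.5 with PBS, 10.9 to 19.8 with IL-13 and 7.97 to 10.3 with IL-4. Osm thus had the wider gap in every mouse. The log2 fold change of microglia against macrophages was -3.76 ± 0.38 with PBS (adjusted p = 2.63e-06), -3.24 ± 0.38 with IL-4 (adjusted p = 7.27e-06) and -4.04 ± 0.39 with IL-13 (adjusted p = 1.33e-06) for Osm. For Tnf it was -1.93 ± 0.39 (adjusted p = 0.00133), -2.12 ± 0.39 (adjusted p = 0.000648) and -2.84 ± 0.40 (adjusted p = 5.6e-05). Each of these 6 calls was kept with every library of the comparison left out in turn. The sums of 4 marker lists also stood higher in macrophages than in microglia with PBS, without overlap, among them those of the gated cells, monocytes and macrophages. The neutrophil markers summed to 35900 to 60460 normalised counts in PBS macrophages against 6779 to 8666 in PBS microglia, to 20900 to 121300 against 3564 to 11080 with IL-13, and to 9773 to 33670 against 4529 to 7012 with IL-4. Ly6g, a defining marker of neutrophils, had 0 counts in IL-4 microglia. The early response genes given beside Tnf were at 71430 to 133300 in macrophages and 15840 to 39800 in microglia, and the small T and NK cell sums were higher in macrophages with PBS and IL-13. The part of these lists in the gaps of Tnf and Osm was not tested. The genes most like Osm over the 18 libraries, centred as above, were Ptgs2os2 (r = 0.883), the neutrophil-attracting chemokine Cxcl2 (r = 0.868) and Ilkap (r = 0.827).

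Il15 ran the other way, higher in microglia than in the macrophages of the same mouse in 8 of 9 mice. The log2 fold change was 1.71 ± 0.39 with IL-4 (adjusted p = 0.00359) and 1.41 ± 0.39 with IL-13 (adjusted p = 0.012), and 0.39 ± 0.38 with PBS (adjusted p = 0.506). The call with IL-13 was lost without the macrophages of mouse 7 (adjusted p = 0.0526) and that with IL-4 when the 6 libraries were fitted alone (adjusted p = 0.0622). Il10 and Lif were higher in macrophages in all 9 mice, but edgeR called no difference between the cell types for either, with adjusted p from 0.0538 to 0.247 for Il10 and from 0.264 to 0.365 for Lif. DESeq2 called Il10 lower in microglia with IL-4 (adjusted p = 0.0271). Il6 was higher in microglia in 6 of 9 mice and its differences were not called. Il27 in PBS microglia was at least 4.78-fold lower than in PBS macrophages (adjusted p = 0.0163), a call lost without any of the 3 microglia libraries (adjusted p up to 0.051). Il23a in IL-4 microglia was at least 11.8-fold lower than in IL-4 macrophages (adjusted p = 0.0461). That limit rested on the macrophages of mouse 9 and was 2.84-fold without them, and the call was lost without any of the 6 libraries and with the mouse as a block (adjusted p = 0.111). Among all members, 3 of 8 tested members were called between the cell types with PBS, 4 with IL-4 and 3 with IL-13, against 25.6%, 27.6% and 29.4% of 16535 genes.

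The response to the injected cytokine was not shown to differ between the cell types for any member. By edgeR, 0 of 8 were called for IL-4, where 0.992% of genes were, and 3 (Il23a, Il27 and Il15) had an unadjusted p under 0.05, as 12.4% of all genes did. For IL-13, 0 of 8 were called, where 0.0242% of genes were, and 1 (Il27) had an unadjusted p under 0.05, against 5.83%. DESeq2 called 0 for IL-4, against 4.66% of genes, and 1, Il27, for IL-13, against 1.1%.

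The pathway around these cytokines was followed in 58 genes: partner chains, receptors, transducers, and factors that control cytokine transcripts. Of the 48 tested in macrophages, 2 rose and 7 fell with IL-4, and 2 rose and 5 fell with IL-13. That is 18.8% with IL-4, against 14% of all genes tested, and 14.6% with IL-13, against 4.19%. Jak2, a kinase bound to receptors of the IL-6 and IL-12 groups, rose with both, from 755.9 ± 76.8 normalised counts (SD, n = 3) to 4288 ± 1122 with IL-4 and 2657 ± 873.1 with IL-13 (log2 fold change 2.56 ± 0.26 and 1.84 ± 0.25). Il27ra, the receptor chain of IL-27, also rose, from 36 ± 12.3 to 107.2 ± 27.3 and 102 ± 2.83 (log2 fold change 1.62 ± 0.35 and 1.53 ± 0.35). Tnfaip3, an inhibitor of NF-kB that TNF itself induces, fell from 8575 ± 1913 to 4354 ± 297.2 with IL-4 and 3720 ± 936.8 with IL-13 (log2 fold change -0.92 ± 0.21 and -1.18 ± 0.21). Irf8, a transcription factor of myeloid cells, fell with IL-4 by -0.59 ± 0.13 and had -0.52 ± 0.13 with IL-13 (adjusted p = 0.0594). Stat4, a transducer of IL-12, fell with both, by -1.54 ± 0.39 with IL-4 and -1.75 ± 0.39 with IL-13. The phosphatase Dusp2 fell with IL-13 (-1.25 ± 0.28) and had -0.34 ± 0.28 with IL-4 (adjusted p = 0.477). Between the cytokines, 1 of the 48 was called: Lifr, the receptor chain of LIF, was lower with IL-4 at 223.1 ± 61.6 normalised counts than with IL-13 at 700.9 ± 240.3 (log2 fold change -1.63 ± 0.27, adjusted p = 0.0451).

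In microglia, 2 of 50 tested pathway genes were called with IL-4 and 1 with IL-13, against 2.22% and 0.366% of all genes tested. Nfil3, a transcription factor known to hold down Il12b, rose from 780.9 ± 90.3 normalised counts (SD, n = 3) to 2836 ± 479.7 with IL-4 and 1827 ± 141.4 with IL-13 (log2 fold change 1.90 ± 0.19 and 1.23 ± 0.18, adjusted p = 0.00138 and 0.0252), in cells where Il12b itself had no count. The 8 monocyte and macrophage markers, all with counts in every group, also had higher sums in these libraries, as given beside Tnf, and Nfil3 stood at 3869 ± 709.7 in PBS macrophages. Their part in the rise of Nfil3 was not tested. Socs3, which blocks signalling of IL-6 through Il6st, fell with IL-4 (-0.89 ± 0.17, adjusted p = 0.0282).

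Osmr, the receptor chain of Osm, was higher in microglia, the cells lower in its ligand. It had 2350 ± 469.6 normalised counts (SD, n = 3) in PBS microglia and 10.8 ± 4.72 in PBS macrophages, a difference of 7.71 ± 0.79 on the log2 scale (adjusted p = 2.63e-06). With IL-4 the difference was 8.30 ± 0.84 and with IL-13 9.87 ± 0.89. The fibroblast and pericyte markers differed between the cell types in the same direction, and endothelial markers (5 genes, all with counts) summed to 25510 to 86760 in microglia and 1720 to 16190 in macrophages. Osmr was highest, at 6683, within the IL-13 microglia group, and the part of such cells in these counts was not tested. Lifr was also higher in microglia, at 1354 ± 358.1 normalised counts with IL-4 against 223.1 ± 61.6 in macrophages (log2 fold change 2.53 ± 0.29, adjusted p = 5.4e-06), and by 1.62 ± 0.28 with PBS and 1.32 ± 0.27 with IL-13 on the log2 scale. Of the 13 tested receptors, 4 were higher and 3 lower in microglia with PBS, 3 and 3 with IL-4, and 3 and 4 with IL-13. Lower in microglia were the TNF receptor chain Tnfrsf1b (log2 fold change -1.86 ± 0.21 with PBS), the IL-10 receptor chain Il10rb (-1.17 ± 0.15), Dusp1 (-2.42 ± 0.35), a phosphatase that restrains MAP kinases, Nfil3 (-2.34 ± 0.34) and Tnfaip3 (-2.70 ± 0.40). Zfp36, whose protein binds the nonamers shown above for Tnf, was lower in microglia by -2.25 ± 0.35 with IL-4 and -2.58 ± 0.36 with IL-13 on the log2 scale. Of the 52 tested pathway genes, 22 were called with PBS (16 lower in microglia), 25 with IL-4 (21 lower) and 27 with IL-13 (22 lower), or 42.3%, 48.1% and 51.9%, against 25.6%, 27.6% and 29.4% of all genes tested. Over all genes, 1637 of the 4240 called with PBS, 2061 of 4569 with IL-4 and 2095 of 4868 with IL-13 were lower in microglia. None of the 52 was called for a difference between the cell types in the response to either cytokine by edgeR, and 6 for IL-4 and 1 for IL-13 had an unadjusted p under 0.05. These are 11.5% and 1.92% of the 52, below the 12.4% and 5.83% of all genes.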

How the data were processed

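RNA of sorted cells was amplified by SMART-seq2 without molecular identifiers or strand. The authors mapped reads to GRCm38 with STAR 2.5.3a and deposited expected counts per gene from RSEM 1.3.0, as whole numbers without normalization. Reads that match several genes are divided by RSEM. The annotation release is not given in the sources used here; 50604 of 53465 gene IDs matched GENCODE M21 with their version, from which positions and exon lengths were taken.

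Tests used edgeR 4.0.16 (R 4.3.3): TMM, filterByExpr, the quasi-likelihood test, and Benjamini-Hochberg adjustment over all genes tested, with a threshold of 0.05. Treatments were compared in the 9 libraries of a cell type, and cell types in a model of 6 group means over 18 libraries. SEs come from the F statistic. A group whose libraries all held 3 counts or fewer gives a fold only as a lower bound. The model was tested on simulated data. Alternatives were DESeq2 1.42.0, its size factors, no filter on low counts, other sets of libraries, each library left out, and the mouse as a replicate block. Numbers pair the cell types because both came from the same mouse; same-mouse correlations of deviations were 0.0237 to 0.108.

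Members and lists were chosen with earlier results of these data known. Test statistics of a member are given in many comparisons where its unadjusted p was under 0.05, but not in all, and elsewhere beside its values. Of the pathway lists, up to 6 called genes per comparison, by smallest p, are named, and Ebi3 and Osmr follow from that rule. Some genes on these lists are not reported here. Similar genes are the 3 with the highest Pearson r of log2(normalised count + 1).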

Additional observations from a re-analysis of the deposited data

How the results depend on the processing

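The number of members called was within 1.5 times the count reported under most settings. It moved with DESeq2's Wald test to 1 for IL-4 against IL-13 in microglia (Osm), to 1 for the same contrast in macrophages (Lif) and to 1 for the cell type difference in the IL-13 response (Il27). For IL-13 against PBS in macrophages it was 1 with all 18 libraries in 1 model and 4 without the macrophages of mice 6 and 9. With only the 6 libraries compared, it was 2 between the cell types with IL-4. With each library left out in turn, the count ranged from 0 to 1 for IL-4 against PBS in microglia, from 0 to 1 for IL-13 against PBS in microglia and from 1 to 2 for IL-13 against PBS in macrophages. The mouse as a replicate block left the counts of members called between cell types at 3 with PBS and 3 with IL-13; with IL-4 it gave 3, as the call of Il23a was lost, and it changed no other call. No fold change with an unadjusted p under 0.05 turned its direction. Without the macrophages of mice 6 and 9, log2 fold changes that were not called did turn in macrophages: to 0.27 for Tnf between IL-4 and IL-13, and to -0.24 for Osm, -0.85 for Il6 and -1.99 for Il23a between IL-4 and PBS. Zeros in single microglia libraries limit what can be said of Il6, Il23a, Lif and Il27 there. Over all genes, DESeq2 called 741 against 6 by edgeR for IL-4 against IL-13 in microglia and 399 against 34 in macrophages, 1478 against 345 and 414 against 57 for IL-4 and IL-13 against PBS in microglia, 1111 against 570 for IL-13 in macrophages, and 775 against 164 and 183 against 4 for the cell type differences in the responses. The cause was not tested.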

Other observations

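Genes most like each of the remaining members over the 18 libraries, by Pearson r of log2 normalised counts centred on each cell type, were Rftn2 for Il6 (r = 0.893), Ppig for Il23a (r = 0.802), Gm807 for Il27 (r = 0.86), Htra3 for Il15 (r = 0.852), Rybp for Lif (r = 0.77), Tpm4 for Il10 (r = 0.818) and Ifit3b for Il12b (r = 0.875). Il10 and Il12b did not pass the filter on low counts in both cell types. The points share mice, treatments and library preparation, and Il6, Il10, Il12b, Il23a, Il27 and Lif had libraries at 0 counts, so these are descriptions only. Lif had the lowest of these best correlations, and its neighbour Osm was not among its 3 most similar genes.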
